A study of Schizosaccharomyces pombe with 5 samples.

Results

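The genes described here act in the decision of fission yeast to stop dividing and mate, and in the mating itself. The 8 members were the cAMP pathway genes cyr1, git1 and cgs1, the kinase genes srk1 and lkh1, the zinc-finger mRNA regulator gene zfs1, and the cell fusion genes fus1 and prm1. They were taken by name because rows of the deposited Mei2 or Msa1 peak lists overlapped them by coordinates, so lying under a peak is how they were chosen and not a result. They were 8 of 12606 annotated nuclear genes and carried 9 of the 268 listed peaks, 6 of the 128 Mei2 peaks and 3 of the 140 Msa1 peaks.

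The lists come from CLIP-Seq, in which RNA is crosslinked by UV light to a tagged RNA-binding protein, immunoprecipitated with it and sequenced. Homothallic h90 cells carried Mei2-TAP (2 libraries), Msa1-TAP (2 libraries) or no tag (1 library). Each tag was added at the C-terminus of the protein, in the chromosomal gene, with a KanMX marker, and the untagged and tagged strains all bore ura4-D18 and leu1-32. Cells were grown at 30 °C per the labels and starved of nitrogen on ME medium for 4 h, although the growth protocol also names later harvests and the methods give another growth temperature.

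Each list sets 1 tagged library against the 1 untagged library, which both lists share, and peaks of the second library of each protein were not analysed here. No value therefore has a replicate check, and no test was run. The lists themselves gave a total of 194019 tags in Mei2-TAP and 252539 in untagged cells, and by a fit 359942 in Msa1-TAP. A tag is a read pair and each read counts as 0.5. Each ratio of tagged over untagged tags, scaled by these totals, has a 95% Clopper-Pearson interval that covers counting error only. Listed peaks were kept at 4-fold or more, and the interval does not allow for this selection, so its low end is not evidence of enrichment. HOMER, the peak caller, gave each peak an unadjusted Poisson p that compares those libraries and not the conditions. No input RNA was analysed, so stronger binding, more RNA per cell and more cells with the RNA cannot be told apart. The Mei2 list placed its deepest peak on meiRNA, the known partner RNA of Mei2, at 86.4-fold.

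In well-fed fission yeast, adenylate cyclase makes cAMP, cAMP frees the catalytic subunit of protein kinase A, and the kinase holds down the transcription factor Ste11 that switches on mating genes. Starvation lowers cAMP and activates the stress MAP kinase Sty1, which releases this block. Partner cells then exchange pheromones, grow towards each other and fuse, and the zygote enters meiosis under Mei2, which is kept inactive by the Pat1 kinase until then. Msa1 is another RNA-binding protein, known to hold back sexual differentiation, and the study tagged it for comparison with Mei2.

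No member lay under peaks of both lists, and over all coding genes few did: 16 of the 229 listed genes, which were 13.9% of the Mei2 genes and 12.3% of the Msa1 genes. The Mei2 list recovered cyr1, cgs1, srk1, fus1 and prm1, which were 5 of the 8 members, and the Msa1 list recovered git1, lkh1 and zfs1, which were the other 3. Recovered here means lying under a peak called against untagged cells. For a CLIP-Seq target of Mei2 the study also required that the RNA not come down with Msa1-TAP. The Mei2 targets that it named include no member. Of all 5113 coding genes, 2.25% lay under a Mei2 peak and 2.54% under a Msa1 peak. Since the members were chosen from these lists, nothing is read from their counts against those shares. Absence from a list does not show that the RNA was absent, because the lists hold only peaks of at least 4-fold. The lowest member fold was 4.56 at lkh1, and regions below 4-fold were not in the lists.

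All 9 peaks lay wholly inside their member gene, and 5 of them had their midpoint in its annotated 5′ UTR. These were the peaks on cyr1 and srk1 for Mei2 and on git1, lkh1 and zfs1 for Msa1. The other 4, all of Mei2, lay in coding sequence in cgs1 and fus1 and in the 3′ UTR in prm1. Among all peaks on coding genes, 5.98% of the 117 Mei2 peaks and 21% of the 119 Msa1 peaks had the midpoint in a 5′ UTR. The members thus held 2 of the 7 such peaks in the Mei2 list and 3 of the 25 in the Msa1 list. Counted by any base in a 5′ UTR the shares were 17.9% and 32.8%, and by most bases 5.98% and 21.8%, and the same 5 member peaks were counted each way. The position was known when the members were chosen, and the difference was not tested.

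**Figure D1:**
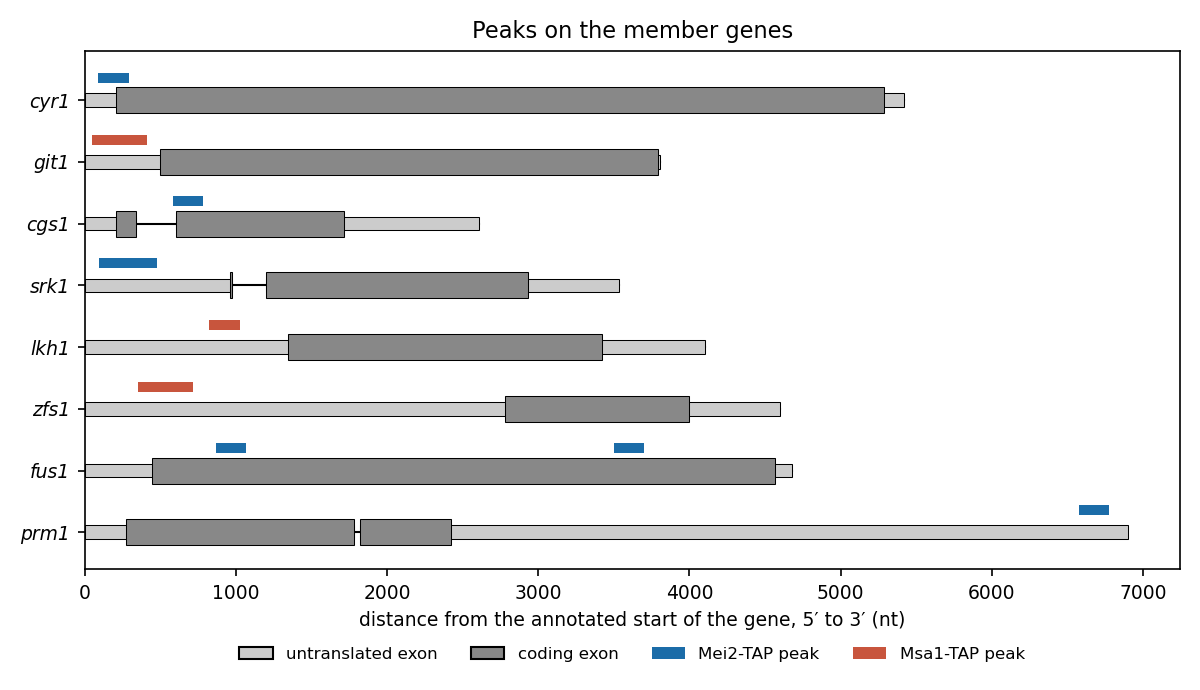
The 8 member genes drawn to scale from the annotated start of each gene (x axis, nt), with untranslated exons as narrow boxes, coding exons as wide boxes, introns as lines, and peaks as bars above (blue, Mei2-TAP; red, Msa1-TAP). The 3 Msa1 peaks and the Mei2 peaks of cyr1 and srk1 lay at the 5′ side ahead of or across the start of the coding sequence, and the prm1 peak lay at the 3′ end.

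The peaks are deposited without strand, and this limits which RNA each of them can be credited to. Only 3 of the 9 peaks lay over the member gene alone, namely those on srk1, git1 and lkh1, and all 3 were in the 5′ UTR. The other 6 also lay over a gene on the opposite strand. This was SPNCRNA.5832 for 194 nt of the cyr1 peak, SPNCRNA.3631 for all 200 nt of the cgs1 peak, SPNCRNA.6151 for 285 nt of the zfs1 peak, and SPNCRNA.1026 for 47 nt and 200 nt of the fus1 peaks. Under the prm1 peak it was the coding gene lys1, for 190 nt. Over both lists, genes on both strands lay under 59.4% of Mei2 peaks and 53.6% of Msa1 peaks.

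Short stretches of the reference under the peaks are shown first, because they place each peak against the start codon, a splice site or a searched motif. The capitals mark the start codon in the cyr1 and lys1 lines, the last bases of the intron in the cgs1 line, an upstream ATG in the srk1 and git1 lines, a Mmi1 hexamer in the lkh1 and fus1 lines and the AU-rich core in the zfs1 line. Each is written 5′ to 3′ on the strand of the named gene, from the ASM294v3 reference.
cyr1, chrII:2819995-2820023, plus strand: caaattgccactaATGgatcaaagcaagc
lys1, chrI:3743406-3743434, minus strand: tcatactttcaaaATGagccagacggctc
cgs1, chrI:3643618-3643647, plus strand: caaatttctcttttAGgcgacaccattaca
srk1, chrIII:1302157-1302185, plus strand: ttagaggctggagATGagtatcggaaaga
git1, chrII:3834641-3834669, minus strand: atccagcttataaATGaattttgatctac
lkh1, chrI:659258-659287, minus strand: gcattcaaatttTGAAACtctttcgaagta
fus1, chrI:4816831-4816860, minus strand: ttaaaaatatcaTCAAACgattctgaacta
zfs1, chrII:3486751-3486780, minus strand: tatttgggattTATTTATttttatttccta

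Of the cAMP pathway genes, cyr1 and cgs1 were recovered with Mei2 and git1 with Msa1. The gene cyr1 (SPBC19C7.03) encodes adenylate cyclase, the enzyme that makes cAMP. Its Mei2 peak, at chromosome II 2819892 to 2820092, held 11 tags in Mei2-TAP and 2.5 in untagged cells, a 5.73-fold ratio (1.39 to 39.2, HOMER p of 5.72e-06). It began 91 nt into the gene and crossed the start codon, with 115 nt in the 206 nt 5′ UTR and 85 nt in the coding sequence. The cyr1 start codon shown above thus lay under the peak, as did the only upstream ATG of this leader, whose frame of 21 codons ran past the start codon in another reading frame.

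The gene cgs1 (SPAC8C9.03) encodes the regulatory subunit of protein kinase A, which keeps the kinase inactive when cAMP is low. Its Mei2 peak, at chromosome I 3643611 to 3643811, held 11 tags against 2, a 7.16-fold ratio (1.56 to 66.5, HOMER p of 6.96e-07). The peak crossed the end of the only intron of cgs1, with 22 nt in the intron and 178 nt in the second exon, and so held the 3′ splice site shown above. Tags joined across the splice cannot be told from unspliced tags in a peak list.

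The gene git1 (SPBC21C3.20C) encodes a C2 domain protein needed for adenylate cyclase to respond to glucose. Its Msa1 peak, at chromosome II 3834579 to 3834940, held 34.5 tags in Msa1-TAP and 5 in untagged cells, a 4.84-fold ratio (1.89 to 15.8, HOMER p of 8.07e-10). All 361 nt of it lay in the 497 nt 5′ UTR, from 50 to 410 nt after the gene start, and it ended 87 nt before the start codon. It covered the only upstream ATG of git1, shown above, which opens a frame of 18 codons that closes within the leader. No gene lay on the other strand.

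Other genes of the pathway were not listed. Of 13 genes of cAMP and protein kinase A signalling, 2 lay under a Mei2 peak and 1 under a Msa1 peak, and all 3 were the members. Over all 5113 coding genes the shares were 2.25% and 2.54%, and 4.48% for either list, so most coding genes were unlisted. This gene set and those below were chosen with earlier results of these data known, so nothing is read from their counts. The genes of the G protein subunits gpa2, git5 and git11, the receptor git3, the catalytic subunit pka1, the phosphodiesterase cgs2 and the transcription factor rst2 lay under no peak of either list.

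The member peak with the most tags was on srk1, and was of Mei2. Its clonal ratio, HOMER's measure of tags that start at the same base, was 1.17, and only lkh1 had a higher value among the 9 peaks, at 1.27. The part of such repeated tags in their depth was not tested. The gene srk1 (SPCC1322.08) encodes a kinase that Sty1 activates and that holds back mitotic entry through Cdc25. The peak, at chromosome III 1302028 to 1302413, held 75.5 tags in Mei2-TAP and 17 in untagged cells, a 5.78-fold ratio (3.38 to 10.4, HOMER p of 5.16e-32). It ranked 12 of 128 by tags and 16 by HOMER p, but only 66 by fold. Its interval was the narrowest of the 9 and was the only 1 of the 6 Mei2 member peaks to lie wholly above 2, against 47 of all 128 Mei2 peaks.

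The srk1 peak lay wholly in the 5′ UTR, from 92 to 476 nt after the gene start, and ended 487 nt before the start codon. The leader of srk1 is 963 nt long and holds 12 upstream ATGs, and 7 of them lay under the peak. Each of the 12 opened a short frame that closed within the leader, and the ATG shown above opens a frame of 25 codons, as does another under the peak, and no frame that starts there is longer. Leaders with 12 or more ATGs were annotated for 23 of the 4512 coding genes that have a 5′ UTR, and the density was 12.5 ATGs per kb in srk1 against 4.73 per kb over all of them. It was higher in the leaders of prm1 and fus1, at 22.1 and 18.1 per kb, and no peak lay in those leaders. No other gene lay under the srk1 peak on either strand.

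The peaks of the Mei2 list most like that of srk1, by the distance in log2 tags and log2 fold over 111 peaks on other coding genes, were those of rep2, leu2 and mmi1. Other genes also lay under these peaks, which are named by the coding gene they were assigned to. The rep2 peak held 74.5 tags against 16.5, the leu2 peak 72 against 14.5, and the second mmi1 peak 66 against 15. Their folds of 5.88, 6.46 and 5.73 all lay inside the interval of srk1. The rep2 peak also had its midpoint in the 5′ UTR, while that on leu2 and the second mmi1 peak had theirs in coding sequence. The first mmi1 peak of the Mei2 list, with 80 tags against 6.5, had its midpoint in the 5′ UTR. The study reported the 5′ UTRs of mmi1 and rep2 as enriched with Mei2-TAP. This likeness uses 1 value of each library and says nothing of a shared role.

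The gene lkh1 (SPAC1D4.11C) encodes a kinase of the LAMMER family, whose members phosphorylate both serine or threonine and tyrosine. It was recovered with Msa1, in a 200 nt peak at chromosome I 659152 to 659352 with 52 tags against 8, a 4.56-fold ratio (2.15 to 11.1, HOMER p of 3.73e-13). The peak lay wholly in the 1345 nt 5′ UTR, from 825 to 1024 nt after the gene start and 321 nt or more ahead of the start codon. Scaled to 10000000 tags of the library, it held 722 tags per 100 nt, against 1011 per 100 nt at srk1 in the other library, and these were the densest of the 9 peaks. Its rank in the Msa1 list was 20 of 140 by tags but 112 by fold. Of the 4 upstream ATGs of lkh1, 2 lay under the peak.

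Of 15 genes of the stress MAP kinase pathway, srk1 was the only gene under a peak, and it was in the Mei2 list alone. The genes of the MAP kinase sty1, its activator wis1, the transcription factors atf1 and pcr1, the phosphatases pyp1 and pyp2, and cmk2, which encodes another kinase of this pathway, lay under no peak. Of the 3 kinase genes lkh1, prp4 and dsk1, only lkh1 was listed. Over all coding genes, 4.48% lay under a peak of either list.

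The gene zfs1 (SPBC1718.07C) encodes a CCCH zinc-finger protein of the tristetraprolin family, which binds AU-rich elements of mRNAs and speeds their decay, and which fission yeast needs for efficient mating. It was recovered with Msa1. The peak, at chromosome II 3486729 to 3487092, held 25.5 tags against 2, an 8.95-fold ratio (2.24 to 77.8, HOMER p of 5.61e-11), the highest ratio of the 3 Msa1 member peaks and 18 of 140 in its list. The intervals of zfs1, git1 and lkh1 overlapped.

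All 363 nt of the zfs1 peak lay in the 5′ UTR, from 354 to 716 nt after the gene start and at least 2062 nt ahead of the start codon. The annotated leader of zfs1 is 2778 nt long and takes up 60.4% of the mRNA, the longest of all 5113 coding genes. It holds only 3 upstream ATGs, none of them under the peak. The peak was rich in T, at 42.4% on the sense strand, and held a match to the AU-rich core on that strand. The non-coding RNA SPNCRNA.6151 ran on the other strand under 285 of its 363 nt. Of 9 genes of RNA-binding regulators, zfs1 alone was listed for either protein, and nrd1, csx1, rnc1, msa1 and 4 others were not. The share listed over all coding genes was 4.48%.

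The cell fusion genes were recovered with Mei2, by shallow peaks. The gene fus1 (SPAC20G4.02C) encodes the formin that builds the actin focus at which partner cells fuse, and it was the only member with 2 peaks. The peak nearer the 5′ end, at chromosome I 4816716 to 4816916, held 7.5 tags against 0.5, the fewest tags of any peak in the Mei2 list. Its 19.5-fold ratio rests on those 0.5 tags, and its interval of 1.57 to 21878 gives in effect no upper limit (HOMER p of 1.67e-07). The peak nearer the 3′ end, at chromosome I 4814085 to 4814285, held 9.5 tags against 1.5, an 8.24-fold ratio (1.48 to 129, HOMER p of 3.52e-06).

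Both fus1 peaks lay in the 4119 nt coding sequence, 427 to 626 nt and 3058 to 3257 nt after the start codon. SPNCRNA.1026 runs antisense to fus1 under all of the first and 47 nt of the other. The leader of fus1 holds 8 upstream ATGs in 443 nt, and no peak lay there.

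The gene prm1 (SPAP7G5.03) encodes a membrane protein that helps the plasma membranes of partner cells to fuse. Its Mei2 peak, at chromosome I 3743259 to 3743459, held 11 tags against 2.5, the same counts as cyr1, and so the same 5.73-fold ratio (1.39 to 39.2, HOMER p of 5.72e-06). It lay in the last part of a 4473 nt 3′ UTR, 6576 to 6775 nt after the gene start. That 3′ UTR runs antisense through nearly the whole of lys1 (SPAP7G5.04C), which encodes an enzyme of lysine synthesis. On the lys1 strand the peak covered all 28 nt of the 5′ UTR and 162 nt of coding sequence, with the start codon shown above. Which of the genes gave the RNA cannot be told apart here.

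Of 30 genes of pheromone response and cell fusion, fus1 and prm1 lay under a Mei2 peak and 0 lay under a Msa1 peak. The shares over all coding genes were 2.25% and 2.54%. The transcription factor gene ste11, the MAP kinase cascade genes byr2, byr1 and spk1, the pheromone receptor genes mam2 and map3, the pheromone genes map2 and mfm1, mfm2 and mfm3, and the G protein gene gpa1 were not listed. Of 6 genes of the Pat1 and Mei2 switch, mmi1 and sme2, which encodes meiRNA, lay under Mei2 peaks and sme2 under a Msa1 peak. That Msa1 peak held 249 tags against 14, a 12.5-fold ratio (7.30 to 23.2), against 86.4-fold in the Mei2 list. Most bases of the sme2 peak in each list lay outside the annotated sme2 gene, and the peaks have no strand. The study reported meiRNA as not enriched with Msa1-TAP, by qRT-PCR and by CLIP-Seq reads at its locus. Those measures differ from a peak ratio over a wider region, so this ratio does not test that report. The genes pat1, mei2, mei3 and mei4 lay under none.

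**Figure D2:**
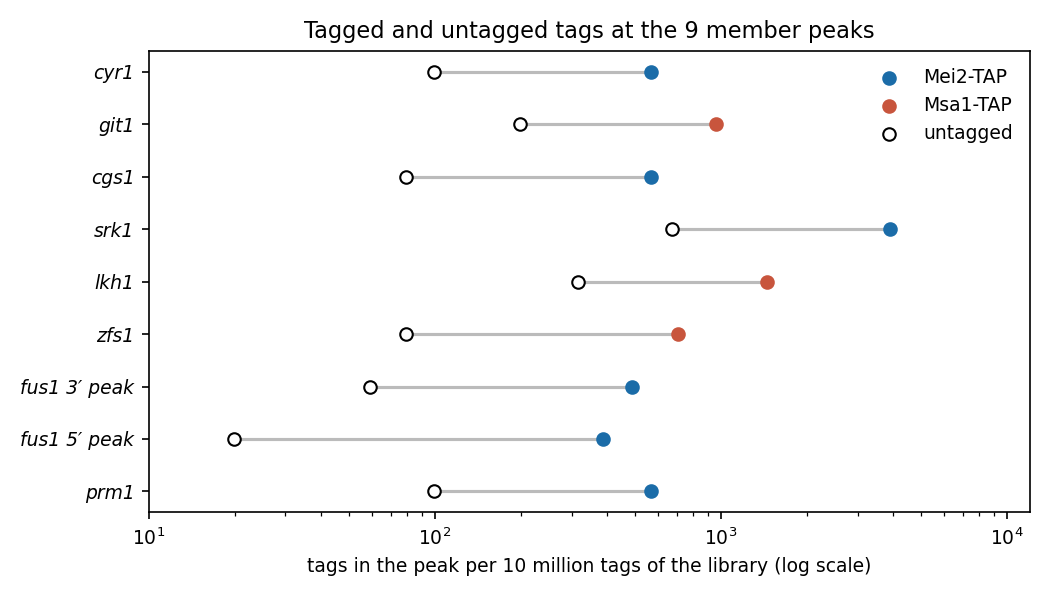
Tags in each member peak per 10000000 tags of the library (x axis, log scale), in the tagged library (filled; blue, Mei2-TAP; red, Msa1-TAP) and the untagged library (open), 1 library each and no error bar. The srk1 peak stood highest in both its tagged and its untagged value, and the 5′ peak of fus1 lowest.

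Set side by side, the srk1, lkh1, git1 and zfs1 peaks held 75.5, 52, 34.5 and 25.5 tags, and the other 5 peaks held 11 tags or fewer. The Msa1-TAP library has more tags and some peaks are longer, so this order is partly one of library and length. Scaled to 10000000 tags per library and to 100 nt, srk1 (1011) and lkh1 (722) stayed apart, while git1 (266) and zfs1 (195) fell below the 283.5 of cyr1, cgs1 and prm1. Per 10000000 tags, the untagged level ran from 19.8 at the 5′ peak of fus1 to 673 at srk1, so the members with the most tagged tags were also those with more untagged tags, apart from zfs1. The median of the 6 Mei2 member peaks was 11 tags and 6.47-fold, against 13.2 tags and 5.86-fold over all 128 Mei2 peaks. The median of the 3 Msa1 member peaks was 34.5 tags and 4.84-fold, against 23.5 tags and 5.37-fold over all 140. Together the member peaks held 1.13% of the tags in Mei2 peaks and 1.16% of those in Msa1 peaks.

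**Figure D3:**
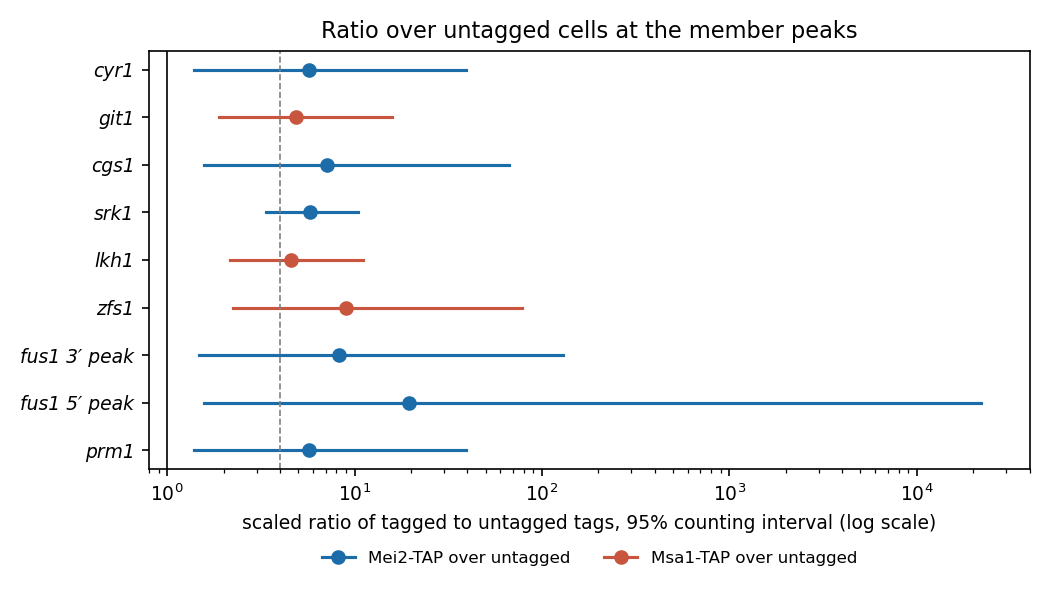
Scaled ratio of tagged to untagged tags at the member peaks (x axis, log scale) with the 95% counting interval, for Mei2-TAP (blue) and Msa1-TAP (red); the solid line marks 1, the dashed line 4, and the points the ratio. The 9 intervals overlapped, and that of srk1 was the narrowest, 3.38 to 10.4.

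The intervals of the ratios narrowed as the untagged tags rose, from 0.5 at the 5′ peak of fus1 to 17 at srk1. The interval lay wholly above 2 for 3 of the 9 peaks, those of srk1, lkh1 and zfs1, and with 1 tag added to both libraries that of zfs1 began at 1.90. For the other 6 it reached down to between 1.39 and 1.89, and 6 peaks rested on 2.5 untagged tags or fewer. All 9 peaks had passed the 4-fold limit, which favours high ratios and few untagged tags, and these low ends are not corrected for it. The intervals of every pair of member peaks overlapped, although the deposited folds ran from 4.56 to 19.5.

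**Figure D4:**
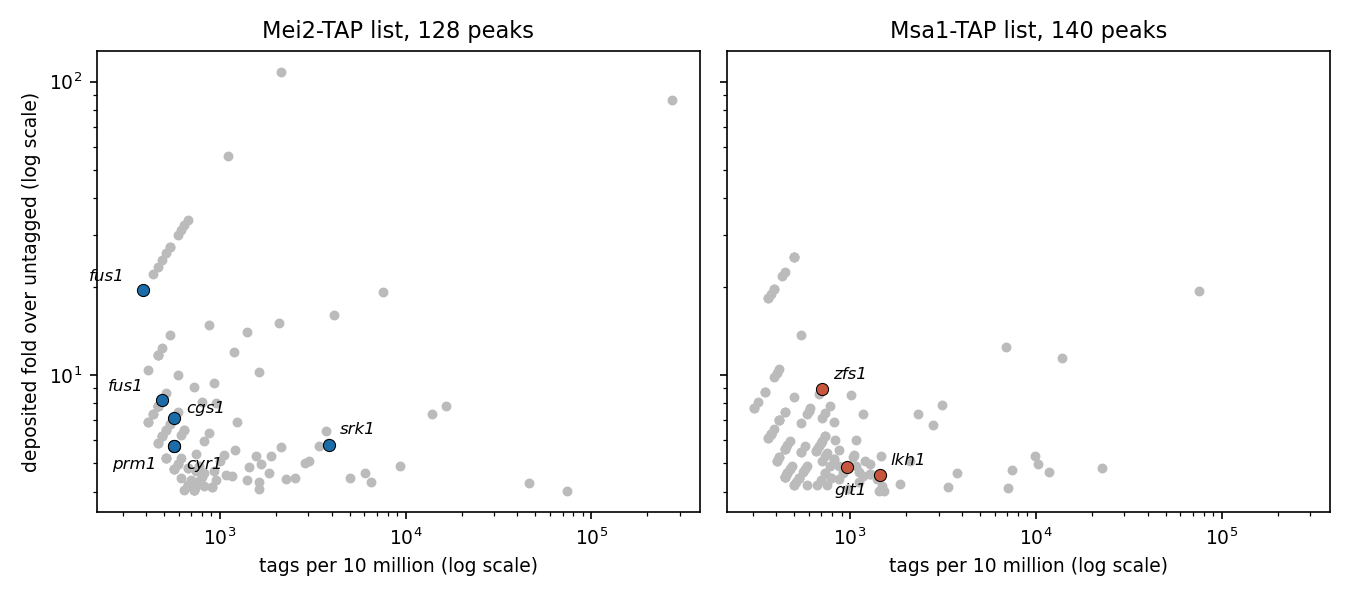
Deposited fold over untagged cells (y axis, log scale) against tags per 10000000 (x axis, log scale) for the 128 Mei2-TAP peaks and the 140 Msa1-TAP peaks, with the member peaks filled and named and all others in grey. The Mei2 member peaks other than srk1 sat at the shallow end, between 387 and 567 scaled tags, srk1 lay apart at 3891, and the Msa1 members lay between 708 and 1445.

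How far each member was from being listed for the other protein can be given only as the tags it would have needed. At the untagged level of each peak, the 4-fold limit corresponded to 96.9 Msa1-TAP tags at srk1, 14.3 at cyr1 and prm1, 11.4 at cgs1, and 8.55 and 2.85 at the fus1 peaks. For the Msa1 members it corresponded to 24.6 Mei2-TAP tags at lkh1, 15.4 at git1 and 6.15 at zfs1. The peak caller also applied other limits, and the tags of the other protein at these places are not in the lists. The nearest peak of the other protein lay 4.48 kb away for zfs1, 15.8 kb for srk1 and 23.8 kb for lkh1, and 26.5 kb or more for the remaining members.

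The members had long leaders, whether or not a peak lay in the 5′ UTR. The annotated 5′ UTR was 963 nt in srk1, 1345 nt in lkh1 and 2778 nt in zfs1, longer than in 98.5%, 99.4% and 99.98% of coding genes, and 497 nt in git1, longer than in 94.4%. That of cyr1, 206 nt, was longer than in 77.2%. Without a peak there, fus1, prm1 and cgs1 had leaders of 443, 271 and 210 nt, longer than in 93.0%, 84.8% and 77.9%. The median over the 8 members was 470 nt, against 79 nt over all 5113 coding genes, of which 601 have no annotated 5′ UTR. Over each list, the coding genes with a 5′ UTR peak had a median leader of 412 nt for Mei2 (7 genes) and 338 nt for Msa1 (25 genes), against 130 nt and 122 nt for all coding genes assigned a peak. A longer leader gives a peak more room, and its part in these positions was not tested.

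**Figure D5:**
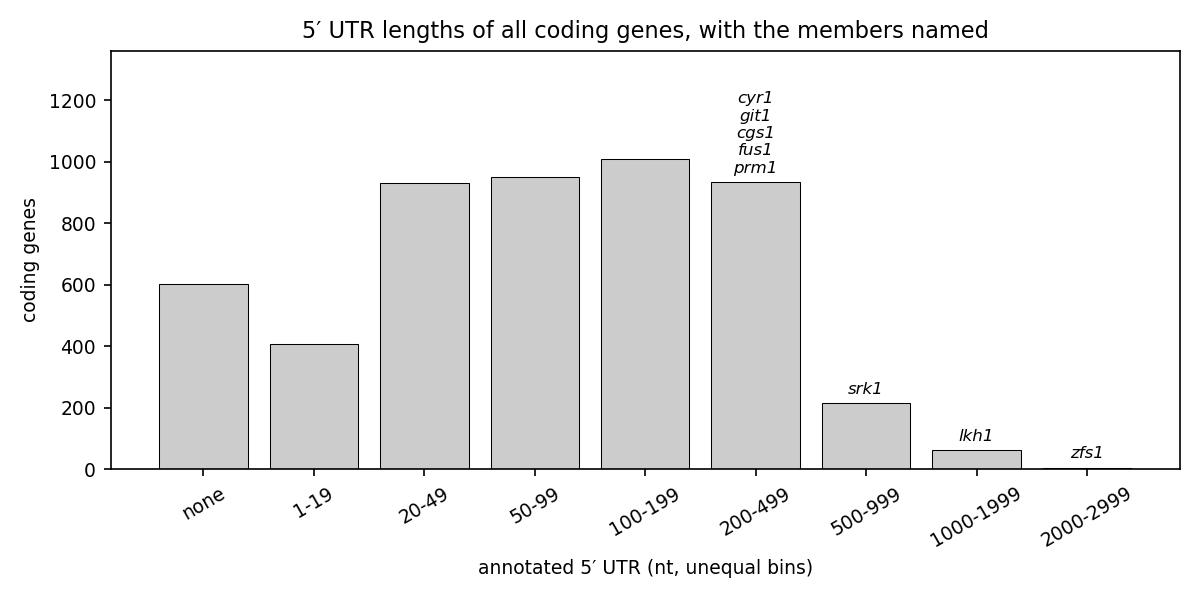
Number of coding genes (y axis) by length of the annotated 5′ UTR (x axis, nt, bins of unequal width), with the members named above their bin. The 8 members all lay in the bins from 200 nt upwards, and zfs1 had the longest 5′ UTR of the 5113 genes.

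Sequence motifs were searched under the 9 peaks on both strands. The hexamer TTAAAC and its variants with the second letter changed, namely TCAAAC or else TGAAAC, to which the YTH-family protein Mmi1 binds in meiotic RNAs, occurred in 6 of the 9 peaks, with 4 sites on the strand of the member and 4 on the other, and no site overlapped another motif. The sense sites were in cyr1, lkh1, the 5′ peak of fus1 and prm1. A hexamer was held by 39.7% of 200 nt windows of coding genes on either strand, and by 60.1% to 62.5% of windows as long as the git1, zfs1 and srk1 peaks. Over the lists, at all peak sizes, 57.8% of the 128 Mei2 peaks and 40.1% of the 137 nuclear Msa1 peaks held 1 or more. Among those of 200 nt alone, the shares were 56.6% of 76 for Mei2 and 31.5% of 92 for Msa1. The differences were not tested. The git1 and zfs1 peaks and the 3′ peak of fus1 held none.

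The AU-rich core TATTTAT, found within the elements that Zfs1 protein binds in other mRNAs, occurred once in the zfs1 peak and once in the 5′ peak of fus1, on the sense strand in each, and the zfs1 match is shown above. On either strand it was held by 8.44% of 200 nt windows and 14.3% of 363 nt windows of coding genes. The share of A and T ran from 55.5% in the cgs1 and prm1 peaks to 71.0% in the 3′ peak of fus1, against a median of 62.5% over 200 nt windows. A match gives only the letters and is not a binding site.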

How the data were processed

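RNA from CLIP of 5 samples was made into stranded libraries with 12 PCR cycles and sequenced from both ends. Per the labels and methods, the authors mapped reads with STAR to ASM294v2, sorted them with SAMtools, ran deepTools and called peaks with HOMER in a mode for broad regions. Tool versions are not given in the sources used here. The deposited tag signal is scaled to 10000000 tags. The deposited estimated counts are unscaled tags of 1 library of each list, in steps of 0.5. The deposited fold is a ratio after scaling, of 4 or more. The deposited p-value is HOMER's unadjusted Poisson value. The deposited score was not used. The deposited clonal ratio served 1 alternative setting.

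Totals of Mei2-TAP and untagged cells were recovered from scaled and unscaled tags. The Msa1 list holds no unscaled Msa1-TAP tags, so that total was the one that put scaled tags nearest to steps of 0.5. All Msa1-TAP tag counts rest on this fit. In all 99 of 99 Mei2 peaks with few untagged tags the value fell within 0.2 of a step of 0.5 tags. A listed peak covers the bases after its start up to its end. Genes came from the ASM294v3 annotation; chromosome names matched, 0 peaks passed a chromosome end, and each member had 1 mRNA. All peaks are deposited on the plus strand, so strand was not used. A member was recovered when a peak overlapped it by 1 nt, and the region was that of the midpoint. Alternatives were other overlap and region rules, a fold of 6, a p of 1e-06, rounded tags and 1 added tag. Python 3.11.15 and scipy 1.17.1 were used, and the interval and region rules were tested on simulated data that had no 4-fold limit. Genes named were the 8 members, all genes under their peaks, the genes of 6 pathway lists, and 3 peaks most like the deepest member peak. One of the 76 list genes was matched by a synonym. The members and lists were chosen with earlier results of these data known. Amplified reads are not independent molecules.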

Additional observations from a re-analysis of the deposited data

How the results depend on the processing

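The count of members under a peak depended on the threshold. With a fold of at least 6, 2 of the 5 members remained in the Mei2 list (cgs1 and fus1) and 1 of the 3 in the Msa1 list (zfs1). With a HOMER p of at most 1e-06, 3 remained for Mei2 (cgs1, srk1 and the 5′ peak of fus1) and 3 for Msa1. Requiring 50 nt or 50% of a peak inside the gene changed neither count, and the 5 peaks in 5′ UTRs stayed 5 when any base or most bases decided the region. Among genes of the 6 lists, the 50% rule gave 6 in place of 7 for Mei2 and 3 in place of 4 for Msa1, the gene lost being sme2. Peaks with a clonal ratio of at most 1.1, a limit chosen after seeing the data, left 4 Mei2 and 2 Msa1 members, without srk1 and lkh1. Rounding tags up to whole pairs gave ratios of 4.56 to 10.4, and adding 1 tag to both libraries 4.13 to 7.38, all inside the intervals reported, and the added tag left 2 of the 3 intervals wholly above 2, without zfs1. No paired analysis was possible because each list holds 1 tagged library. Leaving out a replicate could not be done for the same reason. At 11 tags or fewer, as in 5 of the 9 peaks, depth limits any ranking.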
